A study of Mus musculus with 35 samples.

Results

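The piRNA clusters described here are the mouse precursor loci whose names are made of a chromosome, a chromosome band and a number, such as 2-qE1-35981. They were chosen by the form of the name, in the cluster table of the small RNA libraries and in the 3 tables of precursor counts, and 5 clusters with names of that form were set aside. This left 95 clusters of the 100 that carry a band name and of the 214 clusters of each precursor table. The small RNA table lists 219, of which 5 had no read in any library and 214 were tested. The other clusters carry a gene name with the prefix pi-. The rule itself uses names and no measured value, but the number in a name goes with the piRNA level, as given below. Rankings and shares held are given for the 95 clusters, without the 5 set aside.

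PIWI-interacting RNAs (piRNAs) are small RNAs of animal germ cells that are cut from long single-stranded precursor transcripts and loaded onto PIWI proteins, which they guide to complementary RNA. In the adult mouse testis most of them arise from precursors that are switched on at the pachytene stage of meiosis by the transcription factor A-MYB (gene Mybl1), and several such precursors start back to back from a shared bidirectional promoter. The precursors are exported to the cytoplasm, processed at mitochondria and in germ granules, and in round spermatids the PIWI proteins gather in the chromatoid body, a perinuclear granule that also holds the RNA helicase DDX4. SMG6, the gene product that was removed in this study, is an endonuclease of nonsense-mediated mRNA decay.

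The study compared male germ cells of adult Smg6 conditional knockout mice (cKO, Smg6(fx/fx);Ngn3Cre+) with those of littermate controls (CTRL, Smg6(fx/fx);Ngn3Cre- or Smg6(fx/wt);Ngn3Cre-), all on a mixed C57Bl/6J and SV129 background. The floxed segment holds exon 9 of Smg6, the allele came from 2 embryonic stem cell clones, and the Ngn3 promoter drives Cre in germ cells from early postnatal life, so that somatic cells kept the gene. Spermatocytes and round spermatids were enriched from several testes by sedimentation in a BSA gradient, so that a sample is not a single animal. Chromatoid bodies were pulled down from fixed testicular cells with an antibody to DDX4, likewise from material pooled over several mice. Small RNA was sequenced from 5 control and 5 cKO spermatocyte samples and from 3 control and 3 cKO round spermatid samples, poly(A)+ RNA from 3 samples of each genotype and cell type, and total RNA from 4 control and 3 cKO chromatoid body preparations. The column headings of the small RNA and chromatoid body tables carry numbers that cannot be matched to the replicate numbers of the labels, so these libraries are lettered a to e only to name them. Among the chromatoid body controls, the headings of b and c begin with MVH and those of a and d with M, and nothing states what sets them apart. The methods describe 3 biological replicates of each cell type and genotype, and the same samples served for poly(A)+ and small RNA. Some of the 5 spermatocyte small RNA libraries of a genotype may therefore share a sample, and which do is not stated. SDs and tests that count them as 5 then measure technical spread in part, and such p-values may be too small.

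The 95 clusters lay on 18 chromosomes and in 51 bands, 51 on the minus and 44 on the plus strand of GRCm38 (mm10), and were from 122 to 103528 bases long with a median of 23995. In the GENCODE vM21 annotation 28 overlapped no gene on their own strand, 48 overlapped a long non-coding RNA gene on that strand and 9 overlapped a protein-coding gene on that strand. Reads of a precursor cannot be told apart from reads of an mRNA where the cluster holds coding exons. This touches 11-qB1-590, of whose length 55.9% was exonic sequence on its own strand (over 4933414I15Rik), 2-qE5-4 (55.6%, Stard9, a kinesin gene) and 15-qE1-8387 (14.0%, Elfn2). In the other 6 clusters over a protein-coding gene the share ran from 0% in 9-qA5-24188 (Cyp19a1) to 7.42% in 6-qD1-2831 (H1fx), with 1.47% in 2-qE1-35981 (Chst1). The cluster 1-qE2-2, at chr1:118459145-118459266, was the shortest and lay within the non-coding gene 2900060B14Rik.

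Of the 95 clusters, 27 started back to back with another cluster of the annotation within 1000 bases, in 15 pairs. Both arms belonged to the 95 clusters in 12 of these pairs, and the starts were then 38 to 180 bases apart. The sequences between the starts are printed here because they lie between both transcription starts and so are shared by the arms of a pair. The letters AACNGCC, which contain the core AACNG recognised by Myb proteins, and their reverse complement are in capitals. The arm on the minus strand is named before the one on the plus strand, and each sequence runs 5′ to 3′ on the plus strand of GRCm38 (RefSeq). The pairs shown are the 5 of these 12 with an arm among the 8 clusters with most piRNA in controls, followed by 4 whose arms are described below.
9-qC-31469 / 9-qC-10667, chr9:67733787-67733944: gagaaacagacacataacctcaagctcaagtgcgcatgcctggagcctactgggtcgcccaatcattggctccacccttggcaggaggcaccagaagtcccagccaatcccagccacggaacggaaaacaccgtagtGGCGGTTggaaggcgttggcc
12-qE-23911 / 12-qE-7089, chr12:98420049-98420147: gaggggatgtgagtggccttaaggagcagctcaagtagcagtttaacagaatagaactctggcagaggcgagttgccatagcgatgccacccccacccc
6-qF3-8009 / 6-qF3-28913, chr6:127796373-127796430: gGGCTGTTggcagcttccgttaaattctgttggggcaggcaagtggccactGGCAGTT
9-qA5-24188 / 9-qA5-1495, chr9:54249824-54249945: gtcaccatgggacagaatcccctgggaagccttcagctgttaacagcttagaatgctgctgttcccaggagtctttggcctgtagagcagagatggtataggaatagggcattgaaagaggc
7-qD2-24830 / 7-qD2-11976, chr7:73816470-73816594: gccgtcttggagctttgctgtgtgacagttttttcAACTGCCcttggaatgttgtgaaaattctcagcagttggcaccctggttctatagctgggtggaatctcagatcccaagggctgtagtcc
10-qB5-5404 / 10-qB5-221, chr10:66698137-66698292: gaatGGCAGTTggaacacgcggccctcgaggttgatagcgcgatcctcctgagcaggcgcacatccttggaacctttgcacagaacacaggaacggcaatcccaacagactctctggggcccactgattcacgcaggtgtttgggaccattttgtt
7-qF3-3125 / 7-qF3-246, chr7:125349773-125349870: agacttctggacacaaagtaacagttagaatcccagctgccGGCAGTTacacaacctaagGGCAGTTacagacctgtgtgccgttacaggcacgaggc
4-qB3-639 / 4-qB3-277, chr4:62230937-62231005: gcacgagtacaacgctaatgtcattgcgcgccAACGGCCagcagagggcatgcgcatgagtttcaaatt
7-qD1-654 / 7-qD1-19431, chr7:73105274-73105311: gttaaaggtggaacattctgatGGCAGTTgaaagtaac

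The stretch between 6-qF3-8009 and 6-qF3-28913 is only 58 bases long and held the motif 2 times, and that between 7-qF3-3125 and 7-qF3-246 (98 bases) also held it 2 times. The stretches of the 12-qE and 9-qA5 pairs did not hold these letters. In the window from 250 bases before to 50 bases after the annotated start, on either strand, the motif stood at 51 of the 95 cluster starts (53.7%). It was present at 22 of the 27 starts in back-to-back pairs (81.5%), where the windows of both arms overlap, and at 29 of the 68 other starts (42.6%). Of 32851 RefSeq promoters cut the same way, 3983 held it (12.1%). These are matches of letters, not measured binding.

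The libraries differed in depth. The small RNA libraries held 4823436 to 12372513 reads over all clusters, the precursor libraries of spermatocytes 1252509 to 1851684, those of round spermatids 424892 to 733396 and those of chromatoid bodies 242456 to 1788045, so that the precursor values of round spermatids and chromatoid bodies rest on the fewest reads. In each library at most 1 of the 95 clusters had no read. No 2 libraries of a group agreed within sampling noise (chi-square per degree of freedom 6.03 to 585 over 47 pairs). In CPM, counts scaled to a library total of 1000000 gene counts for genes and cluster counts for clusters, Smg6 itself gave 116 to 184 CPM in control and 181 to 189 in cKO spermatocytes, 123 to 201 and 170.0 to 181 in round spermatids, and 175 to 198 and 156 to 194 in chromatoid bodies. Gene-level counts cannot check the loss of a single exon.

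Marker genes of the cells moved with genotype in the long RNA libraries. The summed level of 9 late spermatid genes (Prm1, Prm2, Tnp1 and others, which pack the sperm head or build the tail) was 21740 to 26919 CPM in control and 2088 to 2249 in cKO round spermatids. In the same libraries the 8 round spermatid genes summed to 2953 to 3020 against 1038 to 1224, the 10 spermatocyte genes to 887 to 943 against 1768 to 1842, and the 8 macrophage genes to 23.9 to 35.2 against 248 to 416. The sums of Leydig cell (5.51 to 6.07 against 31.0 to 330), erythroid (15.8 to 18.4 against 72.0 to 277), spermatogonia (26.8 to 34.8 against 77.2 to 126) and Sertoli cell genes (6.84 to 7.96 against 13.3 to 35.4) were also higher in the cKO libraries. In spermatocytes the late spermatid sum was 3919 to 7621 in control and 444 to 1416 in cKO, and the sum of 5 Leydig cell genes was 112 to 378 against 534 to 1132. In the same libraries the spermatocyte sum was 1950 to 2296 against 2552 to 2788, the round spermatid sum 832 to 1341 against 491 to 741 and the macrophage sum 36.8 to 46.9 against 52.0 to 81.2. The Sertoli sum was 44.4 to 113 against 9.57 to 22 and the erythroid sum 11.1 to 22.3 against 1.58 to 3.53. In chromatoid bodies the late spermatid sum was 1648 to 4162 against 273 to 388, the round spermatid sum was 369 to 604 against 128 to 179, the macrophage sum was 9.10 to 13.5 against 10.1 to 54.9, the Leydig sum was 10.2 to 35.0 against 28.9 to 286, and the spermatogonia sum was 16.0 to 19.5 against 24.8 to 66.1. No marker of these lists was at 0 throughout a group. In bulk samples fewer cells of a type and less RNA per cell cannot be told apart, and the part of cell makeup in the results below was not tested.

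Among the small RNA libraries, 2 of the cKO libraries lay nearer to the other cell type than to their own. The distance was the root mean square difference of log2 levels over the 95 clusters. The library labelled cKO round spermatid b was 0.171, 0.268, 0.185, 0.206 and 0.301 from cKO spermatocyte a to e, and 0.315 and 0.323 from the cKO round spermatid libraries a and c. The library labelled cKO spermatocyte b was 0.166 and 0.141 from cKO round spermatid a and c, and 0.232 to 0.314 from the other cKO spermatocyte libraries. The number of cluster reads per miRNA read also set these 2 libraries apart from the others of their labels. It was 25.4 to 30.6 in control spermatocytes and 40.3 to 42.1 in control round spermatids. In cKO it was 35.8 to 40.0 in spermatocytes a, c, d and e and 23.4 in b, and 24.2 and 23.0 in round spermatids a and c and 32.9 in b. By this ratio cKO spermatocytes a, c, d and e lay nearer to control round spermatids. All cKO round spermatid libraries and cKO spermatocyte b lay nearer to control spermatocytes. The miRNA profiles of cKO spermatocytes a, c, d and e were 0.98 to 1.18 from control round spermatids and 1.28 to 1.60 from control spermatocytes. For cKO spermatocyte b these distances were 1.63 and 1.59. The cKO round spermatid libraries were nearer to control round spermatids, as labelled, at 1.39, 1.23 and 1.64 for a, b and c against 1.62, 1.34 and 1.86 from control spermatocytes. The labels were kept throughout, cell types of cKO small RNA are given as labelled, and counts without both libraries b stand beside the results. Leaving out both libraries b does not check the labels of the other cKO libraries, on which the counts scaled to miRNAs also rest.

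**Figure D1:**
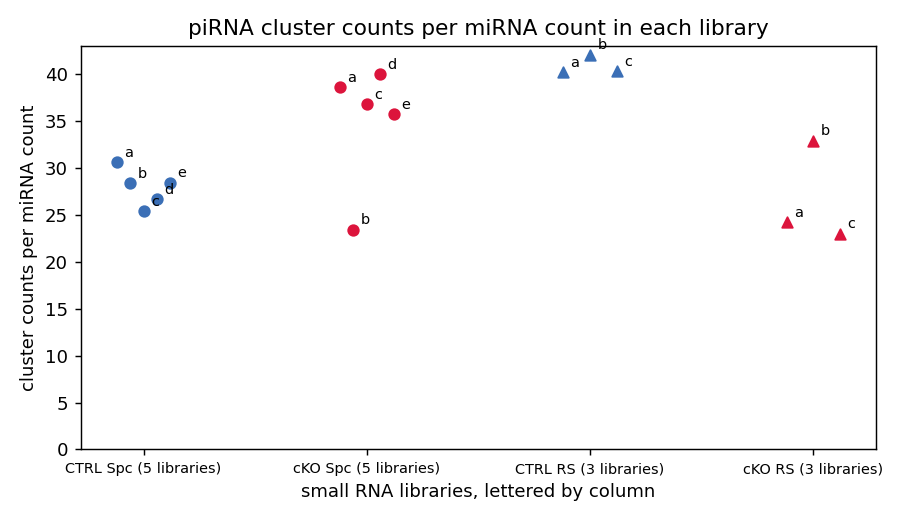
Cluster reads per miRNA read (vertical axis, a ratio) in each of the 16 small RNA libraries, by labelled group and letter, blue for control and red for cKO. Control spermatocytes lie at 25.4 to 30.6 and control round spermatids at 40.3 to 42.1, while cKO spermatocyte b (23.4) and cKO round spermatid b (32.9) lie away from the other libraries of their labels. The cKO spermatocytes other than b lie nearer to control round spermatids, and all cKO round spermatids lie nearer to control spermatocytes.

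The 95 clusters gave most of the cluster-derived small RNA of control cells. They held 81.9% ± 0.139 (SD, n = 3) of all cluster reads in control round spermatids and 81.5% ± 0.0831 (n = 5) in control spermatocytes, against 79.1% ± 0.107 (n = 3) and 78.5% ± 0.753 (n = 5) in cKO. The output was concentrated in few loci. The 8 clusters with the highest mean in control round spermatids, in falling order 2-qE1-35981, 9-qC-31469, 12-qE-23911, 6-qF3-28913, 9-qA5-24188, 17-qA3-27363, 7-qD2-24830 and 4-qC5-17839, held 32.7% ± 0.0133 of all cluster reads there and 32.7% ± 0.194 in control spermatocytes. In cKO round spermatids and spermatocytes they held 29.4% ± 0.295 and 29.2% ± 0.354. The top 20 held 56.1% in control round spermatids, 25 clusters held over 1% each and 22 under 0.1%, and the median cluster held 0.401%.

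The levels of neighbours in that order did not always differ beyond their spread. On 1 scale for the 16 small RNA libraries, 2-qE1-35981 (chr2:92541142-92609144, plus strand, over the sulfotransferase gene Chst1) stood at 55376 ± 979 CPM in control round spermatids and 9-qC-31469 (chr9:67691252-67733786, minus strand) at 54902 ± 1481, which overlap. The next pair, 12-qE-23911 (chr12:98378945-98420048, minus strand, 43876 ± 962) and 6-qF3-28913 (chr6:127796431-127841890, plus strand, 43522 ± 858), also lay within each other's SD. 9-qA5-24188 (chr9:54207174-54249823, minus strand, within the span of the aromatase gene Cyp19a1 but outside its exons) followed at 38779 ± 927. The last 3 were 17-qA3-27363 (chr17:27288276-27325028, 37125 ± 841), 7-qD2-24830 (chr7:73773917-73816469, 35184 ± 467) and 4-qC5-17839 (chr4:94280152-94331623, 35080.5 ± 923), all on the minus strand. At the other end stood 1-qE2-2 and 2-qE5-4, with 1.87 and 2.69 CPM.

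Length alone did not give this order. Per kilobase the highest cluster in control round spermatids was 8-qC5-8200, only 4957 bases long, with 2795 CPM per kb, against a median of 232 and a minimum of 0.119 in 2-qE5-4. Over the 95 clusters Spearman's rho was 0.447 between length and piRNA level, and 0.936 between the number that ends the cluster's name and its piRNA level. Clusters are not replicates, and these coefficients are descriptions. In poly(A)+ RNA the precursors ranked otherwise. Per kilobase, rho between piRNA and precursor level was 0.053 in control round spermatids, 0.332 in control spermatocytes and 0.813 between round spermatid piRNA and the total RNA of chromatoid bodies. The poly(A)+ and total RNA libraries differ in which precursor RNA they capture, and this cannot be told apart from the compartment.

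**Figure D2:**
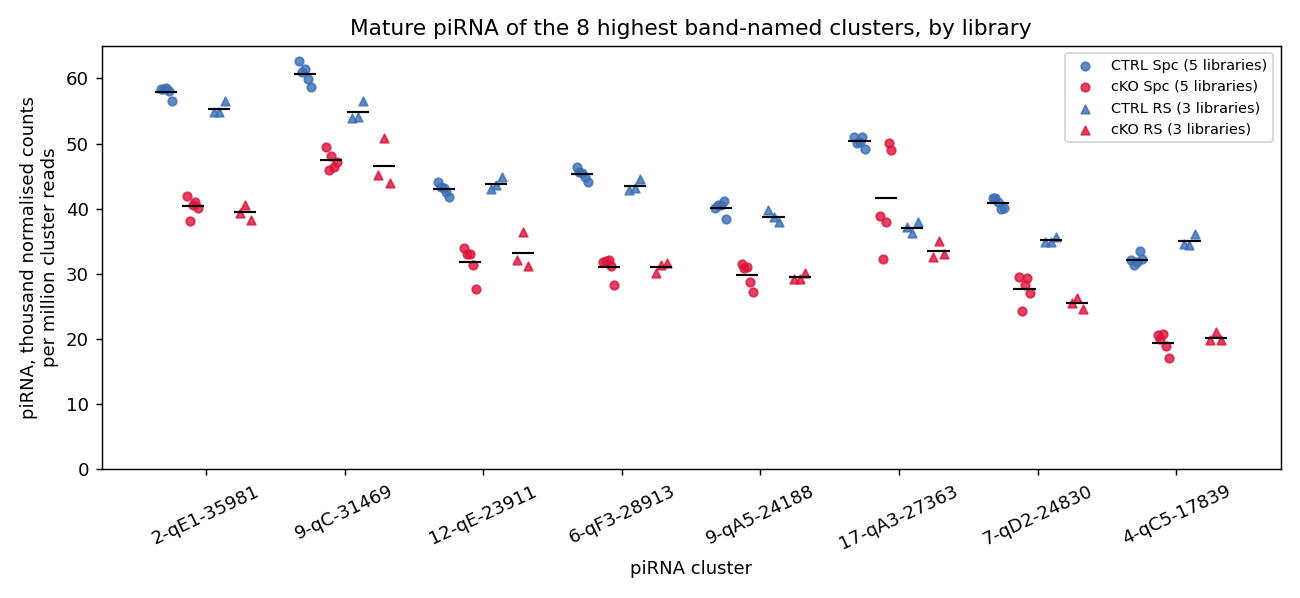
piRNA level of the 8 clusters with most piRNA in control round spermatids, in units of 1000 CPM on 1 scale, with a point for each small RNA library (circles, spermatocytes; triangles, round spermatids) and a bar for each group mean. Control libraries (blue) lie above cKO libraries (red) of the same cell type for each cluster except in spermatocytes for 17-qA3-27363, where cKO libraries d and e reach the control level.

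The first comparison asks whether loss of SMG6 in the germ line went with other amounts of piRNA from these loci. In spermatocytes, relative to all clusters, 52 of the 95 clusters were lower and 14 higher in cKO. A cluster was called where the p of edgeR's quasi-likelihood test, after Benjamini-Hochberg adjustment over all clusters, was 0.05 or less. In round spermatids 63 were lower and 7 higher. Over all 214 clusters 30.4% were called lower and 40.2% higher in spermatocytes, and 36.9% and 39.7% in round spermatids. The median log2 fold change of the 95 clusters was -0.18 in spermatocytes (range -1.44 to 0.98) and -0.24 in round spermatids (-1.41 to 1.52), against 0.11 and 0.05 over all clusters. None of the 95 passed the study's threshold of a log2 fold change of 1.5 together with the adjusted p in either cell type. Of all clusters 0% passed it in spermatocytes, and in round spermatids 8.41% passed it upward and 0% downward.

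CPM values below are scaled within each comparison, so a library can differ slightly between comparisons. Between groups, clusters named by a change were taken only where the groups did not overlap, save those past the fold threshold. Non-overlap was thus required of the clusters named in this way and is not a result. The directions are relative to the other clusters and turned with the scaling. TMM scaling among clusters centres the comparison on the bulk of the clusters. With plain library size 40 clusters were higher against 27 lower in spermatocytes (median 0.10), and 33 against 19 in round spermatids (median 0.06). Scaled to miRNAs, spermatocytes had 23 higher and 8 lower clusters (median 0.13), whereas round spermatids had 0 higher and 91 lower (median -1.22). The difference between the median of the 95 clusters and that of the other 119 was -0.65, -0.66 and -0.67 in spermatocytes and -0.86, -0.86 and -0.86 in round spermatids under the 3 scalings. A scaling shifts all clusters of a library alike, so this distance between band-named and other clusters is nearly the same by construction. Without the libraries cKO spermatocyte b and cKO round spermatid b, 54 were lower and 14 higher in spermatocytes and 73 and 9 in round spermatids. Without control round spermatid a 4 were higher there.

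All 8 clusters with most piRNA were lower in cKO in both cell types under TMM. They were picked by their level in control round spermatids, so the spermatocyte libraries are those the choice did not use. In spermatocytes 2-qE1-35981 gave 56180.1, 56766, 56637, 56066 and 55948 CPM in control and 41844, 37071, 39611, 39933 and 40153 in cKO (log2 fold change -0.50, SE 0.03, edgeR adjusted p = 2.87e-08). 9-qC-31469 gave 60308, 59232, 59437, 57929 and 58111 in control and 49363, 44737, 46999, 45127 and 47168 in cKO (log2 fold change -0.34, SE 0.03, edgeR adjusted p = 7.82e-07). For both, each cKO library lay below each control library, and the spread within a group was small beside the gap. 12-qE-23911 gave 42424, 42169, 41804, 41138 and 41318 in control and 33879, 32230.4, 32295, 30416 and 27694 in cKO (log2 fold change -0.42, SE 0.05, edgeR adjusted p = 4.50e-06). 6-qF3-28913 gave 44670.3, 44335, 44116, 43302 and 43701 in control and 31807, 31094, 31384, 30354 and 28268 in cKO (log2 fold change -0.53, SE 0.03, edgeR adjusted p = 2.92e-08). 9-qA5-24188 gave 38546, 39383, 39324, 39778 and 37956 in control and 31389, 30056, 30291, 27946 and 27299.5 in cKO (log2 fold change -0.41, SE 0.04, edgeR adjusted p = 1.07e-06). Among these the cKO library e was the lowest for 12-qE-23911, 6-qF3-28913 and 9-qA5-24188. 7-qD2-24830 gave 40022, 40492, 39798, 38599 and 39754 in control and 29426, 23678, 27628, 28552 and 27054 in cKO (log2 fold change -0.54, SE 0.05, edgeR adjusted p = 7.82e-07). 4-qC5-17839, with the largest fall of the 8, gave 30854, 30443, 30785, 32318 and 31905 in control and 20527, 19477, 20240.4, 18400.2 and 17102 in cKO (log2 fold change -0.71, SE 0.05, edgeR adjusted p = 4.20e-08).

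17-qA3-27363 behaved differently from these. In spermatocytes it gave 49097, 48700.1, 48582, 49309 and 48721 CPM in control and 38798, 31526, 37044, 48616 and 49050.1 in cKO (log2 fold change -0.25, SE 0.10, edgeR adjusted p = 0.0347). The cKO libraries fell into a low set (a, b and c) and libraries d and e, which overlapped the controls. In the same libraries d and e the 95 clusters together held the lowest shares of cluster reads of the group. Its log2 fold change was 0.02 with library size and 0.08 with miRNA scaling, so that its direction was not settled.

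In round spermatids the same 8 clusters had a median log2 fold change of -0.47. The choice of the 8 used the control libraries of this comparison, so their values here are no independent check. 2-qE1-35981 gave 57825, 58275 and 58858 in control and 40402, 41785 and 39013 in cKO (log2 fold change -0.53, SE 0.04, edgeR adjusted p = 1.39e-05). 4-qC5-17839 gave 36529, 36649.6 and 37649.9 and 20418, 21619.9 and 20162 (log2 fold change -0.83, SE 0.04, edgeR adjusted p = 2.04e-06). 17-qA3-27363 gave 39251, 38521 and 39518 and 33385, 36035 and 33604 (log2 fold change -0.19, SE 0.04, edgeR adjusted p = 0.00393). Here the groups did not overlap for any of the 8, although the gap of 17-qA3-27363 was the smallest. The log2 fold changes of the others were -0.28 (SE 0.06, adjusted p = 0.00328) for 9-qC-31469, -0.44 (SE 0.06, adjusted p = 4.00e-04) for 12-qE-23911 and -0.53 (SE 0.04, adjusted p = 1.39e-05) for 6-qF3-28913. They were -0.43 (SE 0.04, adjusted p = 3.44e-05) for 9-qA5-24188 and -0.50 (SE 0.04, adjusted p = 2.36e-05) for 7-qD2-24830. With library size 9-qC-31469 and 17-qA3-27363 turned to 0.01 and 0.10, and the other 6 kept their sign.

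The lowest fold changes belonged to clusters of middle or low output. 10-qC1-875, which overlaps the non-coding gene Gm48485 at chr10:86617012-86670850, gave 4461, 4197, 4337, 4018 and 4011 CPM in control and 1589, 1465, 1645, 1627 and 1444 in cKO spermatocytes (log2 fold change -1.44, SE 0.05, edgeR adjusted p = 1.56e-10). In round spermatids it gave 4049, 4070.1 and 4374 and 1496, 1656 and 1542 (log2 fold change -1.41, SE 0.06, edgeR adjusted p = 1.55e-06). The control level was nearly the same in both cell types, and every cKO library lay far below it. 3-qA2-617, the longest of the 95 clusters (chr3:20402672-20506199), gave 796, 718, 825, 814 and 712 and 385, 494, 371, 259.8 and 242 in spermatocytes (log2 fold change -1.14, SE 0.16, edgeR adjusted p = 4.20e-05). In round spermatids it gave 1287, 1243 and 1276 and 492, 434 and 502 (log2 fold change -1.41, SE 0.07, edgeR adjusted p = 2.04e-06). In cKO spermatocytes it was lowest in libraries d and e and highest in b. 14-qA3-2286, which overlaps no annotated gene on its own strand at chr14:24337663-24369814, gave 4947, 4804 and 4859 in control and 2313, 2175 and 2673 in cKO round spermatids (log2 fold change -1.03, SE 0.08, edgeR adjusted p = 1.62e-05). 10-qC1-117, over the non-coding genes 1700092E16Rik and 4930463O16Rik, gave 197, 183, 201, 148 and 164 and 103, 47.2, 76.2, 73.6 and 71.3 in spermatocytes (log2 fold change -1.27, SE 0.16, edgeR adjusted p = 1.79e-05).

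Under TMM few clusters rose (14 and 7), whereas with library size 40 and 33 did, and with miRNA scaling 23 and 0. 4-qB3-3994, over the non-coding gene 1700042G15Rik at chr4:57356531-57364266, gave 5224, 5387, 5219.8, 5141 and 5202 CPM in control and 8055, 8639.9, 7631, 8501 and 8200.4 in cKO spermatocytes (log2 fold change 0.65, SE 0.04, edgeR adjusted p = 1.88e-08). In round spermatids it gave 5998, 6075 and 6015 and 8362, 8851 and 8832 (log2 fold change 0.53, SE 0.04, edgeR adjusted p = 2.36e-05). It was the only riser named here with a high level, and all cKO libraries lay above all controls, as the rule for naming required. 17-qC-59, over the non-coding gene AY702103, rose from 72.2, 76.3, 64.5, 78.9 and 83.4 to 163, 129, 151, 113 and 185 in spermatocytes (log2 fold change 0.98, SE 0.13, edgeR adjusted p = 1.69e-05) and changed on the log2 scale by 0.96 (SE 0.09, adjusted p = 7.95e-05) in round spermatids. 7-qD2-40, over the non-coding gene AU020206, gave 24.1, 23.7 and 31.3 in control and 71.5, 47.4 and 67.6 in cKO round spermatids (log2 fold change 1.23, SE 0.19, edgeR adjusted p = 7.29e-04), and 0.57 (SE 0.14, adjusted p = 0.00237) in spermatocytes. In round spermatids scaled to miRNAs the log2 fold changes of 17-qC-59 and 4-qB3-3994 turned to -0.02 and -0.46.

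Over both cell types, all 8 cKO small RNA libraries lay below all 8 control libraries for 33 of the 95 clusters and above them for 5 (17-qC-59, 2-qE5-4, 4-qB3-3994, 7-qD2-40 and 9-qF4-150). The shares over all clusters were 20.1% below and 23.4% above. With library size the counts were 15 below and 17 above, and with miRNA scaling 6 and 0. The 33 included 7 of the 8 clusters with most piRNA, all but 17-qA3-27363. Those 8 were chosen by the control round spermatid libraries, which are among the libraries counted here.

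**Figure D3:**
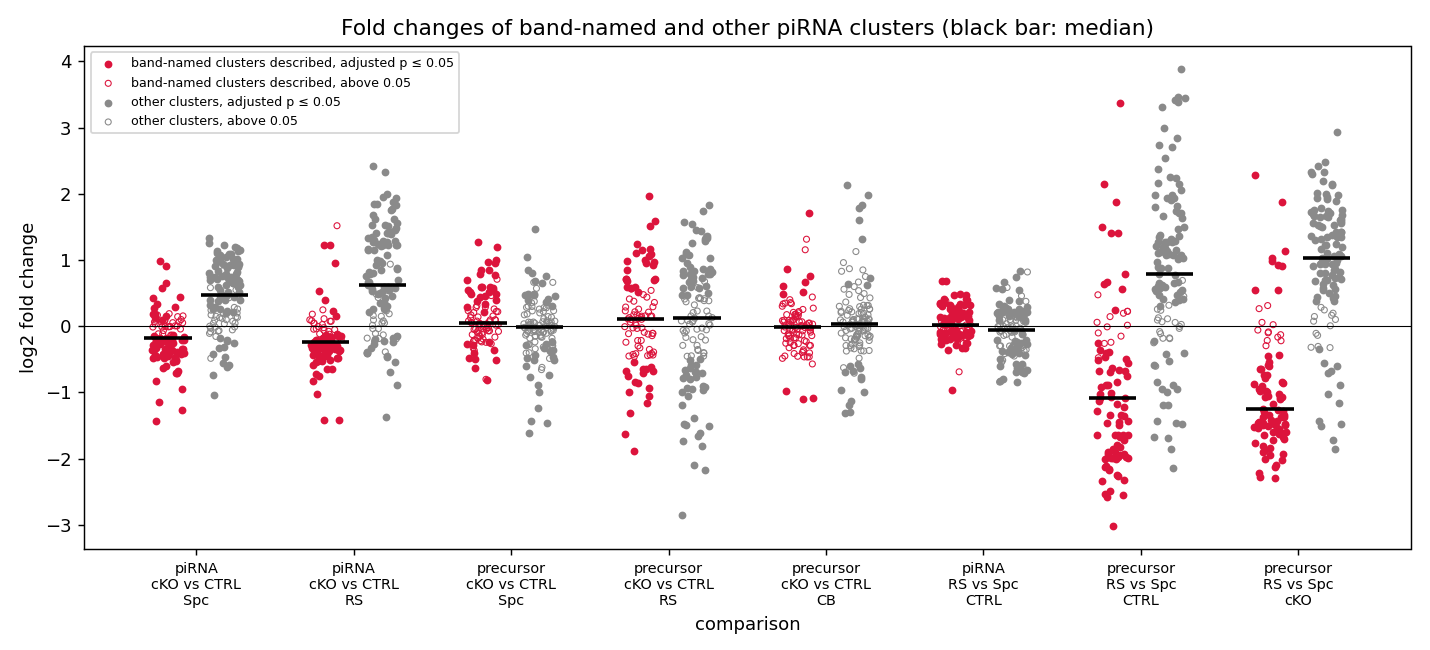
Log2 fold change (vertical axis) of each of the 95 clusters (red) and of the other clusters (grey) in 8 comparisons, of cKO over control and of round spermatids (RS) over spermatocytes (Spc), with filled points for an adjusted p of 0.05 or less, open points above it and black bars for medians (CB, chromatoid bodies). In piRNA the red medians, -0.18 and -0.24, lie below the grey ones, 0.47 and 0.62, while the cKO over control medians of precursors lie between -0.02 and 0.11 for the 95 clusters.

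Between control round spermatids and control spermatocytes the question is how the piRNA of these loci shifted with the step from meiosis to the spermatid. Of the 95 clusters 41 were higher and 29 lower in round spermatids, where 33.2% and 27.6% of all clusters were called, with a median log2 fold change of 0.02. Scaled to miRNAs, 93 were higher and 0 lower (median 1.03). Under TMM the changes were small. 4-qD2-349 (chr4:123892083-123896600) gave 554, 549.8, 520.1, 639 and 638 CPM in spermatocytes and 907, 948 and 947 in round spermatids (log2 fold change 0.69, SE 0.07, edgeR adjusted p = 7.80e-06). 3-qA2-617 gave 729, 658, 756, 745 and 652 and 1158, 1106 and 1133 (log2 fold change 0.68, SE 0.05, edgeR adjusted p = 2.07e-06). 11-qE1-252, opposite to the gene Cep112, gave 472, 465, 503, 533 and 518 and 704, 691 and 697 (log2 fold change 0.49, SE 0.05, edgeR adjusted p = 9.43e-06). These 3 had the highest changes among the named clusters. Each round spermatid library lay above each spermatocyte library, as the rule for naming required. On the lower side, 10-qC1-117 gave 180.3, 167, 184, 136 and 150.2 and 88.5, 85.2 and 79.2 (log2 fold change -0.96, SE 0.10, edgeR adjusted p = 9.83e-06). 17-qA3-27363 gave 44969.9, 44606, 44498, 45164 and 44625 and 35315, 34268 and 35094 (log2 fold change -0.36, SE 0.01, edgeR adjusted p = 2.01e-09). 13-qA5-967, over 4921525O09Rik, changed on the log2 scale by -0.33 (SE 0.04, adjusted p = 5.24e-05). Scaled to miRNAs these 3 turned to 0.05, 0.64 and 0.67.

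In cKO the same comparison called 0 of the 95 clusters in either direction (edgeR), where 0% of all clusters were called, with 6 at an unadjusted p under 0.05, and DESeq2 called 0 as well. Without cKO spermatocyte b and cKO round spermatid b, 9 were higher and 17 lower. The median was -0.02. The test of whether the genotype difference changed with stage called 2 clusters, where 4.21% of all clusters were called higher and 0.467% lower. The term, the log2 fold change in round spermatids minus that in spermatocytes, was 0.94 (SE 0.24, adjusted p = 0.0375) for 10-qC1-117 and -0.34 (SE 0.09, adjusted p = 0.0422) for 11-qE1-252. The control level of 10-qC1-117 was 148 to 201 CPM in spermatocytes and 89.2 to 98.4 in round spermatids, whereas its cKO libraries gave 47.2 to 103 and 58.6 to 81.1. Scaled to miRNAs 91 clusters had a lower term and 0 a higher one, and without both libraries b 6 were higher and 3 lower. Leaving out 1 library gave 0 to 5 higher and 0 to 20 lower, with 20 lower without cKO spermatocyte e and 0 in either direction without any 1 of the control round spermatid libraries.

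The precursors were counted in the same clusters in poly(A)+ RNA. In spermatocytes 27 of the 95 precursors were higher and 10 lower in cKO (20.6% and 14.0% of all clusters), with a median log2 fold change of 0.06. With library size the split was 19 higher and 24 lower, and with DESeq2 30 and 18. Without cKO replicate 2 only 17 were higher, and without cKO replicate 1 only 4 were lower. Of the 8 clusters with most piRNA, 6 were higher in precursor and none was lower. 6-qF3-28913 gave 3548, 4910.0 and 3682 CPM in control and 7520.3, 9084 and 7001 in cKO (log2 fold change 0.96, SE 0.15, edgeR adjusted p = 0.00496). 9-qC-31469 gave 3295, 4310.5 and 3526 and 5785, 7437 and 5962 (log2 fold change 0.78, SE 0.14, edgeR adjusted p = 0.00557). 7-qD2-24830 gave 7231, 8892 and 7381 and 11805, 12835 and 10409 (log2 fold change 0.58, SE 0.12, edgeR adjusted p = 0.00947). For these 3 the cKO libraries lay above all controls. The log2 fold changes of 9-qA5-24188, 17-qA3-27363 and 4-qC5-17839 were 0.77 (SE 0.18, adjusted p = 0.0158), 0.85 (SE 0.22, adjusted p = 0.022) and 0.49 (SE 0.10, adjusted p = 0.0095). Those of 2-qE1-35981 and 12-qE-23911 were 0.07 (SE 0.15, adjusted p = 0.759) and -0.16 (SE 0.12, adjusted p = 0.352), which did not pass.

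The precursors with the highest changes in spermatocytes lay outside the 8 clusters with most piRNA. 7-qF3-246, the plus arm of the 7-qF3 pair printed above, gave 1254, 1479 and 1369.9 CPM in control and 3838, 2871 and 3185 in cKO (log2 fold change 1.27, SE 0.13, edgeR adjusted p = 7.59e-04). 15-qE1-1119, opposite to the Polycomb gene Cbx7, gave 1643, 1971 and 1528 and 4106, 4497 and 3169 (log2 fold change 1.19, SE 0.15, edgeR adjusted p = 0.00285). 15-qE1-8387 gave 2346, 3486 and 2407 and 5883, 5957 and 4641 (log2 fold change 1.00, SE 0.18, edgeR adjusted p = 0.00557). The groups did not overlap for any of these, as the rule for naming required. On the lower side, 10-qC1-117 gave 1165, 1366 and 1102 and 641, 733 and 702 (log2 fold change -0.81, SE 0.11, edgeR adjusted p = 0.0029). 10-qC1-875 gave 5266, 3947 and 3968 and 2733, 3483 and 2321 (log2 fold change -0.63, SE 0.18, edgeR adjusted p = 0.0284). 7-qB5-6255, which overlaps no annotated gene on its own strand, changed on the log2 scale by -0.51 (SE 0.13, adjusted p = 0.022). 10-qC1-117 and 10-qC1-875 were thus lower in both precursor and piRNA in spermatocytes, each by its own test.

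In round spermatids 94 of the 95 precursors could be tested, since 1-qE2-2 had under 10 reads in all. Of these 24 were higher and 17 lower in cKO (31.0% and 23.0% of all clusters), with a median of 0.11 and a range of -1.88 to 1.97. The split was 33 and 13 with library size (median 0.43), 33 and 7 with scaling to genes (median 0.55), and 22 and 26 with DESeq2. Leaving out 1 library in turn moved the counts to 13 to 28 higher and 14 to 23 lower, with 13 higher without control replicate 1. Past a log2 fold change of 1.5 lay 3 higher and 2 lower precursors (3.29% and 4.69% of all clusters). 7-qD2-40 gave 214, 204 and 267 CPM in control and 797, 687 and 1195 in cKO (log2 fold change 1.97, SE 0.25, edgeR adjusted p = 6.76e-06). 15-qE1-8387 gave 705, 845 and 679 and 2058, 2181 and 2458 (log2 fold change 1.59, SE 0.19, edgeR adjusted p = 4.73e-06). 14-qC1-1261 gave 635, 1149 and 804 and 4327, 1138 and 1888 (log2 fold change 1.51, SE 0.35, edgeR adjusted p = 0.00189). The first of these did not overlap between groups, nor did the second, while for 14-qC1-1261 cKO replicate 2 lay within the control range and replicate 1 far above it.

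The lowest fold changes among named precursors in round spermatids were those of 2-qE5-4, 10-qC1-875 and 17-qC-935. 2-qE5-4 gave 32036, 32063 and 36377 CPM in control and 6939.8, 11335 and 8983 in cKO (log2 fold change -1.88, SE 0.23, edgeR adjusted p = 4.73e-06), and these reads cannot be told apart from Stard9 mRNA. 10-qC1-875 gave 17896, 15171 and 17491 and 3793, 8925 and 3664 (log2 fold change -1.63, SE 0.29, edgeR adjusted p = 2.01e-04). 17-qC-935, which is only 1241 bases long and lies in the non-coding gene 1700008K24Rik, gave 37726, 27094 and 37368 and 10059, 16235 and 15078 (log2 fold change -1.30, SE 0.24, edgeR adjusted p = 2.47e-04). All 3 were among the abundant precursors of control round spermatids, and their groups did not overlap, as the rule for naming required. 1-qE3-706, which overlaps no annotated gene on its own strand, gave 1380.3, 1491 and 1306 and 2848, 3627 and 3449 (log2 fold change 1.25, SE 0.19, edgeR adjusted p = 4.73e-05). Of the 8 clusters with most piRNA 5 were higher: 7-qD2-24830 by 1.17 (SE 0.19, adjusted p = 1.09e-04), 9-qA5-24188 by 1.15 (SE 0.20, adjusted p = 1.51e-04), 6-qF3-28913 by 0.97 (SE 0.20, adjusted p = 5.82e-04), 4-qC5-17839 by 0.72 (SE 0.28, adjusted p = 0.0402) and 2-qE1-35981 by 0.59 (SE 0.22, adjusted p = 0.0307). For 4-qC5-17839 the groups overlapped, with cKO replicate 2 at 785 CPM and controls at 574 to 1061. For 2-qE1-35981 they overlapped too, with cKO replicate 2 at 930 CPM and controls at 693 to 968. The late spermatid, spermatocyte and macrophage sums given above differ between the same libraries.

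**Figure D4:**
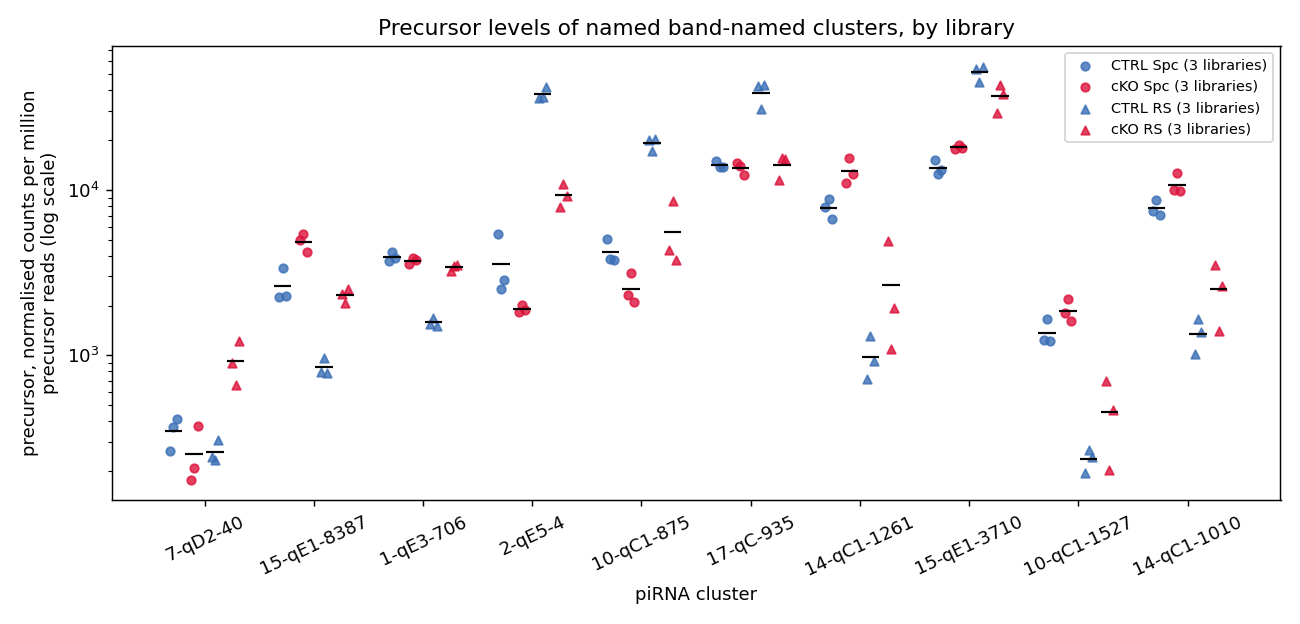
Precursor levels of 10 named clusters in each spermatocyte (circles) and round spermatid (triangles) poly(A)+ RNA library, as CPM on a log10 axis, blue for control and red for cKO, on 1 scale for the 12 libraries, with bars for group means. 2-qE5-4 and 10-qC1-875 lie higher in round spermatids than in spermatocytes and, in round spermatids, lower in cKO than in control, while 14-qC1-1261 lies lower in round spermatids.

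Whether the genotype difference in precursors changed with stage was tested in 1 fit of the 12 libraries. The term was higher for 5 and lower for 17 of the 95 clusters (13.1% and 18.7% of all clusters). With library size the split was 28 and 2, and with scaling to genes 9 and 4. Leaving out 1 library gave 4 to 14 higher and 10 to 30 lower. The higher count was 14 without cKO round spermatid replicate 2 and 8 without control round spermatid replicate 2. The lower count was 30 without cKO round spermatid replicate 1, 10 without cKO spermatocyte replicate 2 and 11 without control spermatocyte replicate 3. The highest terms were 2.31 (SE 0.43, adjusted p = 0.00262) for 7-qD2-40, 1.19 (SE 0.14, adjusted p = 3.76e-04) for 1-qE3-706 and 1.02 (SE 0.20, adjusted p = 0.00324) for 10-qC1-117. For 7-qD2-40 the genotype log2 fold change was -0.37 (SE 0.29, adjusted p = 0.381) in spermatocytes and 1.97 in round spermatids, and for 1-qE3-706 it was 0.03 (SE 0.08, adjusted p = 0.825) and 1.25. The lowest terms were -1.40 (SE 0.22, adjusted p = 0.00102) for 17-qC-935, -1.13 (SE 0.33, adjusted p = 0.0246) for 2-qE5-4 and -0.97 (SE 0.20, adjusted p = 0.00486) for 7-qF3-3125, the minus arm of the 7-qF3 pair.

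In chromatoid bodies, counted in total RNA, few of the precursors differed. Of the 95, 7 were higher and 3 lower in cKO (7.48% of all clusters in each direction), and the median log2 fold change was -0.02. With library size and with DESeq2 the splits were 8 and 8, and 9 and 7. Without control library a or cKO library b 3 were higher, and without control library c 6 were lower. None of the 8 clusters with most piRNA passed in either direction. The largest differences among them were -0.41 (SE 0.16, adjusted p = 0.0962) for 4-qC5-17839 and -0.40 (SE 0.19, adjusted p = 0.169) for 7-qD2-24830. For 7-qD2-24830 control library d stood apart, at 32088 CPM against 20818 to 22171 in the other controls. The precursors that fell were 10-qC1-117, 2-qE5-4 and 10-qC1-875. 10-qC1-117 gave 1819, 1474, 1752 and 1692 CPM in control and 717, 840.1 and 811 in cKO (log2 fold change -1.10, SE 0.15, edgeR adjusted p = 3.14e-04). 2-qE5-4 gave 3682, 3020.1, 3756 and 2969.8 and 1452, 1568 and 1712 (log2 fold change -1.09, SE 0.14, edgeR adjusted p = 3.14e-04). 10-qC1-875 gave 6554, 6661, 7905 and 7065 and 3566, 3593 and 3535 (log2 fold change -0.98, SE 0.14, edgeR adjusted p = 3.51e-04). Each cKO preparation lay below each control preparation for these, as the rule for naming required. Among those that rose, 14-qC1-1010 gave 5465, 5262, 6565 and 7440.4 and 9319.5, 13308 and 11107 (log2 fold change 0.86, SE 0.17, edgeR adjusted p = 0.00564). 15-qE1-1119 gave 3462, 2852, 3354 and 3391 and 4349, 5333 and 6924 (log2 fold change 0.76, SE 0.16, edgeR adjusted p = 0.00727). 14-qC1-1261 changed on the log2 scale by 0.67 (SE 0.16, adjusted p = 0.0106). The groups did not overlap for these 3 either, by the same rule. 7-qD2-40 passed the threshold of 1.5 at 1.72 (SE 0.40, adjusted p = 0.0106) (2.80% of all clusters passed it upward), but at a low level of 93.9, 85.7, 169.9 and 70.3 in control and 169, 595 and 264 in cKO, where the groups overlap.

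The precursors of most of these loci were lower, as a share of all precursor reads, in round spermatids than in spermatocytes. In controls 70 of 94 were lower and 11 higher (41.8% and 42.7% of all clusters), with a median log2 fold change of -1.09, against 0.79 for the other clusters. In cKO 74 of 95 were lower and 9 higher (40.7% and 47.7% of all clusters), with a median of -1.25 against 1.03. Scaled to genes 91 were lower in each genotype, with medians of -2.92 and -2.69. The 95 clusters accordingly held 65.0% ± 0.998 (SD, n = 3) of precursor reads in control spermatocytes and 38.6% ± 0.873 in control round spermatids, 63.0% ± 1.69 and 39.9% ± 2.74 in cKO, and 72.8% ± 2.09 (n = 4) and 71.8% ± 0.415 (n = 3) in control and cKO chromatoid bodies. Precursor reads of all clusters were 3.39% ± 0.383 of gene counts in control and 3.77% ± 0.253 in cKO spermatocytes, and 0.968% ± 0.0322 and 1.54% ± 0.161 in round spermatids.

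The precursors that fell most with stage in controls were 14-qC1-1261, 10-qC1-1527 and 14-qC1-1010. 14-qC1-1261 gave 7478, 8260.4 and 6393 CPM in spermatocytes and 649, 1241 and 833 in round spermatids (log2 fold change -3.02, SE 0.25, edgeR adjusted p = 3.39e-05). 10-qC1-1527 gave 1170.4, 1557 and 1164 and 175, 255 and 219 (log2 fold change -2.59, SE 0.19, edgeR adjusted p = 2.09e-05). 14-qC1-1010 changed on the log2 scale by -2.55 (SE 0.20, adjusted p = 3.10e-05). All 8 clusters with most piRNA fell too, by -0.89 to -2.49 in controls and -1.37 to -2.21 in cKO. 3 named precursors went the other way under TMM, whereas scaled to genes few clusters were higher in this comparison. 2-qE5-4 gave 5126, 2351 and 2729.9 and 32772, 34631 and 37671 (log2 fold change 3.36, SE 0.31, edgeR adjusted p = 5.31e-05), again over Stard9 exons. 10-qC1-875 gave 4775, 3579.8 and 3574 and 18307, 16386 and 18113 (log2 fold change 2.15, SE 0.14, edgeR adjusted p = 1.52e-05). 15-qE1-3710, over the non-coding gene 1700001L05Rik, gave 14361, 11764 and 12554 and 48781, 43075 and 49974 (log2 fold change 1.87, SE 0.10, edgeR adjusted p = 1.12e-05). None of these 3 overlapped between stages, as the rule for naming required.

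In cKO cells 2-qE5-4 was again the highest riser, at 2.29 (SE 0.16, adjusted p = 3.42e-05), followed by 7-qD2-40 at 1.88 (SE 0.33, adjusted p = 5.86e-04). 10-qC1-875 gave 2495, 3383 and 2246 in spermatocytes and 4620.2, 9158 and 4028 in round spermatids (log2 fold change 1.13, SE 0.31, edgeR adjusted p = 0.00786), and scaled to genes its log2 fold change turned to -0.35. The fallers 14-qC1-1261 and 17-qE1-7037 changed on the log2 scale by -2.30 (SE 0.48, adjusted p = 0.00172) and -2.27 (SE 0.47, adjusted p = 0.00166). 4-qC5-17839 gave 6259, 8144 and 6949 and 2396, 805 and 1409 (log2 fold change -2.21, SE 0.35, edgeR adjusted p = 3.55e-04). For these 3 the cKO round spermatid replicate 1 was the highest of its group. The groups did not overlap, as the rule for naming required.

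The piRNA and precursor changes in round spermatids were set against each other in 1 fit of the small and long RNA libraries, whose term is the genotype effect on piRNA minus that on the precursor. Both kinds of library came from the same samples by the study's methods, but the columns do not tie them together, and the fit treats them as independent. Over 94 of the 95 clusters the term was lower for 30 and higher for 11 (20.3% and 29.7% of all clusters), with a median of -0.28. Without cKO round spermatid b of the small RNA set the counts were 33 and 10, without control a or b of that set 7 were higher, and with scaling to miRNAs and genes 86 and 1. 5 of the 8 clusters with most piRNA had a lower term, that is less piRNA relative to precursor in cKO. The 8 were chosen by the control round spermatid piRNA that also enters this fit. 7-qD2-24830 had a term at -1.66 (SE 0.20, adjusted p = 1.01e-05), from -0.50 for piRNA and 1.17 for precursor. The other lowest named terms were -1.69 (SE 0.37, adjusted p = 0.0013) for 10-qC1-1527 and -1.66 (SE 0.47, adjusted p = 0.00851) for 14-qC1-1261. In both, the precursor level of cKO replicate 2 lay within the control range. It was 211 CPM beside 171 to 236 for 10-qC1-1527, and 1138 beside 635 to 1149 for 14-qC1-1261. The highest were 3.11 (SE 0.33, adjusted p = 3.62e-06) for 2-qE5-4, 1.71 (SE 0.19, adjusted p = 5.23e-06) for 4-qB3-3994 and 1.41 (SE 0.24, adjusted p = 1.74e-04) for 17-qC-59. That of 2-qE5-4 says little of piRNA, since its precursor reads cannot be told apart from Stard9 mRNA and its mean piRNA level in control round spermatids was 2.69 CPM. For 4-qB3-3994 the log2 fold change was 0.53 for piRNA and -1.17 (SE 0.19, adjusted p = 1.09e-04) for precursor, opposite signs that both passed.

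The 12 pairs in which both arms belonged to these clusters allow arms that share a start region to be compared. Their output was unequal. The piRNA level per kilobase in control round spermatids differed between arms by a median of 2.31-fold, from 1.05-fold in the pair 4-qB3-639 / 4-qB3-277 (761 and 727 CPM per kb) to 20.7-fold in 10-qB5-5404 / 10-qB5-221 (507 and 24.5). The genotype fold changes of both arms had the same sign in 9 of 12 pairs for piRNA in spermatocytes and in 10 of 12 in round spermatids, where the median absolute difference between arms was 0.10 and 0.11 on the log2 scale. For precursors the signs were equal in 7, 4 and 5 of 12 pairs in spermatocytes, round spermatids and chromatoid bodies, with median differences of 0.47, 0.81 and 0.40. These counts are descriptions.

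The arms of 10-qB5 differed most in piRNA. In spermatocytes the piRNA log2 fold change was -0.83 (SE 0.04, adjusted p = 7.65e-09) for 10-qB5-5404 and 0.16 (SE 0.07, adjusted p = 0.0709) for 10-qB5-221. In the 7-qD1-654 / 7-qD1-19431 pair, whose starts are 38 bases apart, it was 0.16 (SE 0.04, adjusted p = 0.00646) and -0.42 (SE 0.03, adjusted p = 2.01e-07). The 4-qB3 pair was even, at -0.22 (SE 0.03, adjusted p = 5.40e-05) and -0.22 (SE 0.03, adjusted p = 8.63e-05). In precursors the 7-qF3 pair parted in round spermatids, with -0.99 (SE 0.20, adjusted p = 6.53e-04) for 7-qF3-3125 and 1.09 (SE 0.20, adjusted p = 2.41e-04) for 7-qF3-246, and the 7-qD2 pair with 1.17 (SE 0.19, adjusted p = 1.09e-04) for 7-qD2-24830 and -0.22 (SE 0.23, adjusted p = 0.465) for 7-qD2-11976. The differences between arms were not tested.

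**Figure D5:**
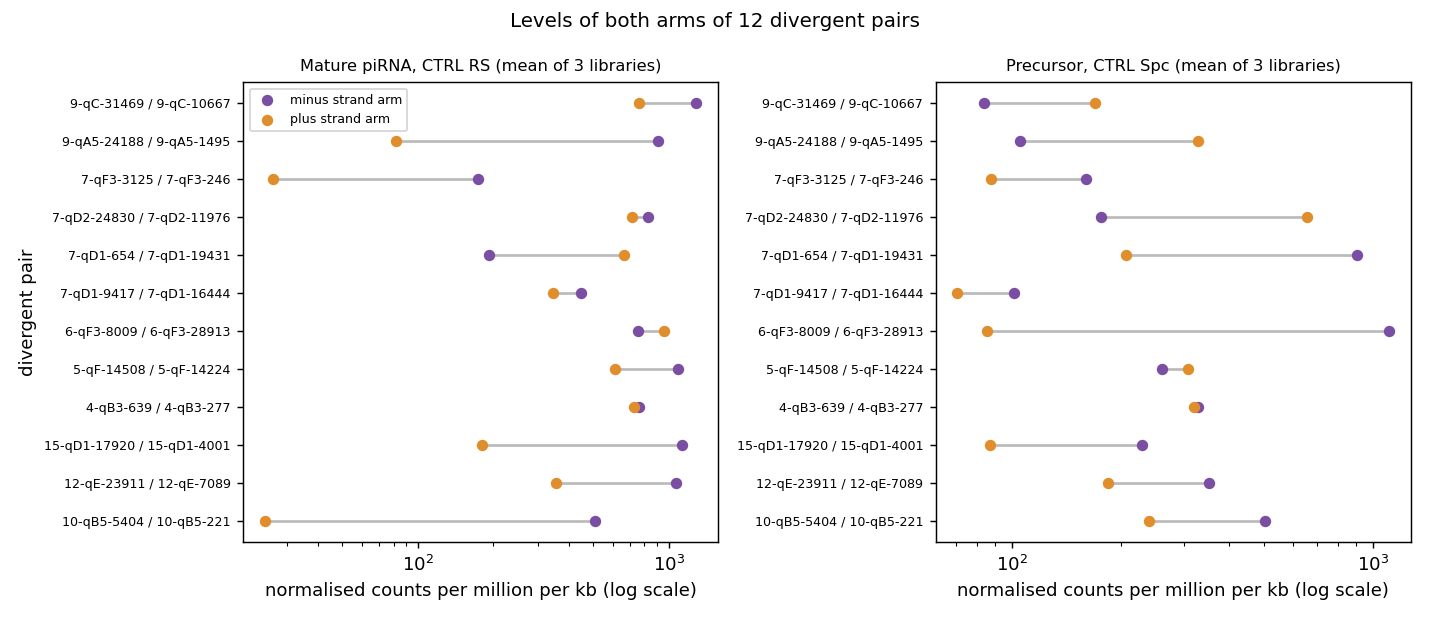
Level of the minus arm (purple) and the plus arm (orange) of each of the 12 back-to-back pairs, as mean CPM per kb over 3 libraries on a log10 axis, for piRNA in control round spermatids (left) and precursors in control spermatocytes (right). The arms of 4-qB3 nearly coincide in both panels (1.05-fold apart in piRNA), those of 10-qB5 lie farthest apart in piRNA (20.7-fold), and 9-qC-31469 has the higher piRNA level but the lower precursor level of its pair.

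The genes of the piRNA pathway were read in the same long RNA libraries. In spermatocytes 7 of the 27 measured genes passed the test upward in cKO and 0 downward, where 13.3% and 13% of all genes and elements did. In round spermatids 16 of 27 passed upward and 6 downward, beside 38.0% and 33.3% of all. In chromatoid bodies it was 1 and 3 of 26, beside 15.4% and 17.7%. Their median log2 fold changes were 0.15, 0.45 and -0.08, against -0.01, 0.10 and 0.01 over all. Mybl1, the transcription factor of the pachytene clusters, was at -0.03 (SE 0.08, adjusted p = 0.82) in spermatocytes and 0.73 (SE 0.08, adjusted p = 7.36e-05) in round spermatids. Tcfl5, which acts with it, was at 0.15 (SE 0.07, adjusted p = 0.145) and -0.05 (SE 0.06, adjusted p = 0.445), and 0.76 (SE 0.22, adjusted p = 0.0191) in chromatoid bodies. With library size 0 pathway genes passed upward in chromatoid bodies. Piwil1, the PIWI protein of the pachytene piRNAs, was at 0.12 (SE 0.11, adjusted p = 0.487) in spermatocytes and 0.80 (SE 0.24, adjusted p = 0.015) in round spermatids.

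Among processing factors, Pnldc1, which trims piRNA 3′ ends, was higher, by 0.55 (SE 0.12, adjusted p = 0.0168) in spermatocytes and 1.76 (SE 0.21, adjusted p = 1.58e-04) in round spermatids. The RNA helicase Mov10l1, which feeds precursors into processing, was at 0.31 (SE 0.09, adjusted p = 0.0466) and 1.01 (SE 0.18, adjusted p = 0.00113), and Tdrd5, which binds precursors, at 0.45 (SE 0.12, adjusted p = 0.0316) and 1.60 (SE 0.18, adjusted p = 8.81e-05). Henmt1, which methylates piRNA 3′ ends, rose in round spermatids by 0.59 (SE 0.09, adjusted p = 6.10e-04). Lower in round spermatids were Mael, at -0.74 (SE 0.06, adjusted p = 1.79e-05), and Gtsf1, which encodes a partner of PIWI proteins, at -1.32 (SE 0.08, adjusted p = 3.95e-06). The granule genes Ddx4, Tdrd7, Rnf17 and Ddx25 were lower there too, at -0.46 (SE 0.06, adjusted p = 1.62e-04), -0.48 (SE 0.07, adjusted p = 3.62e-04), -0.61 (SE 0.07, adjusted p = 7.38e-05) and -0.60 (SE 0.06, adjusted p = 8.23e-05). Gtsf1, Mael and Rnf17 were also lower in chromatoid bodies, at -1.26 (SE 0.19, adjusted p = 4.05e-04), -0.75 (SE 0.17, adjusted p = 0.00541) and -0.52 (SE 0.18, adjusted p = 0.0422). The 7 higher genes of spermatocytes became 1, 2 and 3 without control replicate 3, cKO replicate 1 and cKO replicate 3, and the 16 of round spermatids became 10 without control replicate 1. With library size 2 genes in place of 6 were lower in round spermatids. The late spermatid and spermatocyte sums of these libraries differed by genotype as given above.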

How the data were processed

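Small RNA of purified spermatocytes and round spermatids, poly(A)+ RNA of the same cell types and total RNA of chromatoid bodies were used. Per the submitters' notes, reads were trimmed with cutadapt 2.8. The authors mapped small RNA to mm10 with HISAT2 2.1.0 and long RNA to GRCm38 with STAR 2.7.1a, and counted both over cluster annotations with featureCounts 2.0.1, the version in the headers of the precursor files. The study's methods name other versions of STAR and featureCounts for these libraries. Multi-mapping reads were shared among positions as fractions, so the deposited cluster values are estimated counts that need not be whole, and repeated sequence can move between clusters. Long RNA was counted by strand. The deposited miRNA counts were made by the authors with SPORTS and miRBase, and the gene and element counts with TEtranscripts. These are whole-number counts that were not normalised. Use of molecular identifiers is not given in the sources used here. Every value column was matched to a sample or a group (0 unmatched), and no column held comparisons by the authors. Repeat, tRNA and transcript tables were not used here.

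Estimated counts were rounded to whole numbers and tested with edgeR 4.0.16 (quasi-likelihood test, TMM scaling, R 4.3.3) across all clusters of a table. Clusters needed at least 1 count in every small RNA library or 10 counts in total in precursor tables, and genes at least 10 counts in 3 libraries. P-values were adjusted by Benjamini-Hochberg over all features tested and read at 0.05, and the study's fold threshold was 1.5 on the log2 scale. Genotypes were compared within each cell type and in chromatoid bodies, cell types within genotype, and both together by an interaction term. The changes of piRNA and of precursors were compared in 1 fit over both kinds of library. Levels are CPM, counts scaled to a TMM-adjusted library total of 1000000 cluster counts. Since TMM was computed on cluster tables alone, fold changes are relative to the other clusters. Sequences were read with Python 3.11.15.

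The members and lists were chosen with earlier results of these data known. Clusters were named by level (the 8 highest in control round spermatids) or by change: in each comparison up to 3 of the highest and 3 of the lowest among those that passed the test with a mean of at least 100 normalised counts and, between groups, no overlap. Clusters past the fold threshold were named where there were 5 or fewer.

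In simulated counts for the clusters of each table, 20 clusters were changed by 0.5 and 20 by 1 on the log2 scale. For piRNA in spermatocytes 17 and 20 were recovered with 0 false calls among 174 unchanged clusters, and in round spermatids 14 and 18 with 1. For precursors 11 and 19 were recovered in spermatocytes (1 false), 3 and 16 in round spermatids (3 false among 173) and 7 and 19 in chromatoid bodies (1 false). Precursor changes of 0.5 in round spermatids were therefore mostly below what these libraries could show. Alternatives were library size scaling, scaling to miRNAs or genes, no filter, DESeq2 1.42.0, a replicate block and leaving out each library.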

Additional observations from a re-analysis of the deposited data

Results flagged for a closer look

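A library far from the others was looked for in 52 tests, each of a single cluster or library measure in a group of 4 or 5 libraries. Of these tests 5 found one. Chance alone marks about 1 in 20 independent tests, but these shared libraries and were not independent. In control chromatoid bodies library d, with the most cluster counts, was far above the other 3 in 3 of the highest clusters. It held 29274 CPM of 12-qE-23911 (20835 to 21599 in the others), 32853 of 9-qA5-24188 (23888 to 24892) and 32088 of 7-qD2-24830 (20818 to 22171). The 95 clusters took 75.9% of its cluster counts, against 71.4% to 72.0%. In cKO spermatocytes, library b held 23.4 cluster reads per miRNA read, against 35.8 to 40.0 in the other 4. It is 1 of the libraries that lay nearer to the other cell type.

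The genotype difference changed with cell type in 2 piRNA clusters and in 6 of the named precursors, by the interaction term on the log2 scale (round spermatids minus spermatocytes, cKO over control). For piRNA the term was 0.94 for 10-qC1-117 (adjusted p = 0.0375) and -0.34 for 11-qE1-252 (adjusted p = 0.0422). Scaled to miRNAs the term of 10-qC1-117 turned negative. Without any 1 of the 3 control round spermatid libraries 0 clusters passed in either direction. For precursors the term was 2.31 for 7-qD2-40 (adjusted p = 0.00262), 1.19 for 1-qE3-706 (adjusted p = 3.76e-04) and 1.02 for 10-qC1-117 (adjusted p = 0.00324). It was -1.40 for 17-qC-935 (adjusted p = 0.00102), -1.13 for 2-qE5-4 (adjusted p = 0.0246) and -0.97 for 7-qF3-3125 (adjusted p = 0.00486). What lay behind these values was not tested.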

How the results depend on the processing

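Many results moved with the scaling, and some with the libraries used. In each case below the cause was not tested. Counts are of the 95 clusters, higher then lower. Scaled to library size, cKO over control piRNA gave 40 and 27 in spermatocytes and 33 and 19 in round spermatids. 17-qA3-27363 was then at 0.018 and 0.10, and 9-qC-31469 at 0.013 in round spermatids. The piRNA interaction had 0 lower. Precursors gave 24 lower in spermatocytes (2-qE1-35981 at -0.080), 8 lower in chromatoid bodies, 7 higher in control round spermatids over spermatocytes, an interaction of 28 and 2, and 0.30 for 12-qE-23911 in round spermatids. Pathway genes had 2 lower in spermatocytes, 2 lower in round spermatids and 0 higher in chromatoid bodies. Scaled to miRNAs, piRNA gave 23 and 8 in spermatocytes (17-qA3-27363 at 0.082), 0 and 91 in round spermatids (17-qC-59 at -0.023, 4-qB3-3994 at -0.46), 93 and 0 between control cell types, and 0 and 91 for the interaction (10-qC1-117 at -0.33). Between control cell types 10-qC1-117 was then at 0.048, 17-qA3-27363 at 0.64, 13-qA5-967 at 0.67, 7-qD2-24830 at 0.87 and 9-qC-31469 at 0.94. With miRNA and gene scaling together, piRNA against precursor gave 1 and 86. Scaled to genes, precursors gave 7 lower in round spermatids (12-qE-23911 at 0.42), 2 higher in the control and 1 higher in the cKO comparison of cell types (10-qC1-875 at -0.35), and an interaction of 9 and 4. DESeq2 gave 2 and 3 for the piRNA interaction, and 18, 26 and 7 lower precursors in spermatocytes, round spermatids and chromatoid bodies. Without a filter no call of the named results was lost.

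Without both cKO small RNA libraries b, an alternative chosen after seeing the data, the cKO cell types differed in 9 and 17 clusters and the piRNA interaction in 6 and 3. No paired analysis was possible because the numbers in the small RNA and chromatoid body column headings cannot be matched to replicate numbers of the labels. For poly(A)+ RNA, same-numbered libraries correlated from -0.635 to 0.227 in their deviations, so the numbers were not taken as pairs. With the replicate block, precursors gave 29 and 10 in spermatocytes, 20 and 15 in round spermatids, 10 and 72 and 9 and 74 between cell types in control and cKO, and 4 and 14 for the interaction, and pathway genes gave 4 and 2 in spermatocytes.

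Leaving out 1 library at a time, piRNA gave 11 to 15 higher and 50 to 55 lower in spermatocytes, 4 to 9 and 52 to 73 in round spermatids, 35 to 41 and 25 to 30 between control cell types, 0 and 0 between cKO cell types and 0 to 5 and 0 to 20 for the interaction. Precursors gave 17 to 25 and 4 to 12 in spermatocytes, 13 to 28 and 14 to 23 in round spermatids, 3 to 10 and 3 to 6 in chromatoid bodies, 10 to 14 and 65 to 70 and 9 to 10 and 72 to 75 between cell types in control and cKO, and 4 to 14 and 10 to 30 for the interaction. The fit of piRNA against precursor gave 7 to 16 and 24 to 39, and pathway genes 1 to 6 and 0 to 1 in spermatocytes, 10 to 18 and 6 in round spermatids and 0 to 2 and 2 to 3 in chromatoid bodies. The lowest higher counts came without control library a for piRNA in round spermatids (4), without cKO replicate 2 for spermatocyte precursors (17), without control replicate 1 for round spermatid precursors (13) and without control library a or cKO library b for chromatoid bodies (3). Lower spermatocyte precursors fell to 4 without cKO replicate 1, and the 20 and the 30 lower interactions came without cKO spermatocyte library e and cKO round spermatid replicate 1. Small precursor values turned sign. With each library left out in turn, 2-qE1-35981 ranged from -0.11 to 0.18 in spermatocytes. In round spermatids 12-qE-23911 ranged from -0.15 to 0.10, 17-qA3-27363 from -0.41 to 0.50, 9-qC-31469 from -0.12 to 0.34 and the median of the 95 clusters minus that of the others from -0.23 to 0.16. In chromatoid bodies 6-qF3-28913 ranged from -0.053 to 0.24, 17-qA3-27363 from -0.061 to 0.19, 2-qE1-35981 from -0.11 to 0.039 and that median difference from -0.14 to 0.087. The cause was not tested.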
